A study of Homo sapiens with 4 samples.

Results

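The cytosolic chaperonin CCT, also called TRiC, is built from 8 different subunits, encoded by TCP1, CCT2, CCT3, CCT4, CCT5, CCT6A, CCT7 and CCT8. These 8 genes were taken by symbol from count tables of 19192 genes, and all 8 were present in all 4 libraries with at least 1014 counts. Ribosome footprints and fragmented RNA had been sequenced from 2 lines derived from SW480, an established human colorectal adenocarcinoma line; the cell line field of the OE-labelled RNA library reads SW840 and its source field SW480. One line is labelled LIN28B OE+IMP1-/- knockout (here knockout-labelled) and the other LIN28B OE (here OE-labelled), so LIN28B overexpression is shared by both. LIN28B is an RNA-binding protein that blocks let-7 microRNA maturation, and IMP1 is the RNA-binding protein encoded by IGF2BP1. Each line gave 1 RNA and 1 footprint library from 3 pooled culture plates, so no difference between the lines has a replicate check and no p-value was computed. Intervals are 95% intervals and cover counting error only. In bulk libraries such as these, fewer cells of a kind and less RNA per cell cannot be told apart.

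Total counts were 3260262 (knockout-labelled footprints), 2732760 (OE-labelled footprints), 6813372 (knockout-labelled RNA) and 5429224 (OE-labelled RNA). The gene named in the knockout label was not lower: IGF2BP1 had 1974 RNA counts in the knockout-labelled line and 840 in the OE-labelled line, 1.73-fold higher after scaling. LIN28B had 303 and 1205 RNA counts in the same order, 5.41-fold lower. Directions below are therefore between libraries carrying these labels. Of 8 markers of colorectal epithelium, LGALS4 had no count in any library and the other 7 were detected. Their summed counts-per-million (CPM) value was 5160 and 10030 in knockout-labelled and OE-labelled RNA. The haematopoietic markers summed to 0.59 and 1.84 CPM, the fibroblast and muscle markers to 31.9 and 19.3 CPM, the endothelial markers to 7.04 and 4.42 CPM, and NEFL, the neural marker present in the tables, had no count. KRT8 and KRT18 carried most of the epithelial sum, and CDH1 went the other way, 1.85-fold higher in knockout-labelled RNA. Of the fibroblast and muscle markers, DES had 156 and 101 counts in knockout-labelled and OE-labelled RNA, and COL1A1 55 and 2. The part of these differences in the results below was not tested.

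CCT folds actin, tubulin and a set of other proteins in the cytosol. It has a pair of stacked rings, each holding 1 copy of every subunit, and closes over its client as ATP is hydrolysed. The subunits are paralogues with a shared ATP-binding domain, and each is encoded by its own gene. A complex with 1 copy of each subunit per ring needs equal numbers of the 8 proteins, and ribosome footprints per length of coding sequence follow how much of each is being made where ribosomes move at like speeds. The values below address whether the 8 subunits have equal footprint levels, and whether they keep the same ratio between the lines.

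The subunits are alike in protein fold but not in DNA letters, which bears on how short reads are assigned. The 30 coding bases around the loop that contacts the phosphates of ATP are shown for each gene, from the listed transcript in GENCODE release 29 (GRCh38), read on the coding strand from 5′ to 3′. Capitals mark the 4 codons of the loop, which encode the same residues in all 8 genes.
TCP1: gaagttGGAGATGGAACTacttcagtggtt
CCT2: gaagttGGTGATGGCACTacctctgttacc
CCT3: gaggttGGAGATGGGACCacatcagtaatt
CCT4: gaagcaGGAGATGGCACCacatcagtagtc
CCT5: gaaattGGAGATGGAACCacaggagtggtt
CCT6A: ataactGGTGATGGTACGacttctaatgtc
CCT7: gaggtgGGTGATGGCACCacctcagtgacc
CCT8: gaagttGGAGATGGCACAaactttgttctg
The 4 loop codons were spelled in 8 different ways. Over the 28 pairs of subunits the windows were identical at 15 to 25 of 30 bases, with no identical run longer than 14 bases. Footprints were selected at 18 to 34 nt, so a footprint over this window is longer than the longest stretch any pair of subunits shares in it. Across the whole coding sequences, none of the 18-nt words of a subunit was found in a transcript of another CCT subunit.

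Pseudogenes were a different matter. Of the 28-nt words in the TCP1 coding sequence, 40.1% also occurred in transcripts of other genes, chiefly the pseudogenes TCP1P3 and TCP1P1. The share was 32.8% for CCT8 (CCT8P1) and 32.4% for CCT6A (5 other genes). It was 22.2% for CCT5, 9.97% for CCT7, 2.01% for CCT4, and 0% for CCT2 and CCT3. For 18-nt words, the shortest footprint length selected, the shares found in transcripts of other genes were larger. They were 62.0% for TCP1, 54.7% for CCT6A, 48.8% for CCT8, 42.0% for CCT5 and 21.1% for CCT7. CCT4 had 10.2%, CCT3 2.22% and CCT2 1.13%. How reads with several matches were counted is not given in the sources used here. The levels of TCP1, CCT8, CCT6A and CCT5 are therefore uncertain, and that of CCT7 is uncertain to a lesser degree. Exons of TCP1 also overlap ACAT2 on the opposite strand over 397 bases, and CCT5 overlaps an antisense gene over 1757 bases; use of strand in the counting is not given either.

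The 8 genes lie on 7 chromosomes. In GRCh38, TCP1 (ENST00000321394) lies on chromosome 6 from 159778498 to 159789749, CCT2 (ENST00000299300) on chromosome 12 from 69585334 to 69601570, and CCT3 (ENST00000295688) on chromosome 1 from 156308968 to 156338465. CCT4 (ENST00000394440, 61868089 to 61888804) and CCT7 (ENST00000258091, 73234238 to 73253004) both lie on chromosome 2. CCT5 (ENST00000280326) lies on chromosome 5 from 10249921 to 10266412, CCT6A (ENST00000275603) on chromosome 7 from 56051630 to 56063989, and CCT8 (ENST00000286788) on chromosome 21 from 29056324 to 29073797. Their coding sequences are of nearly the same length, between 1596 bases (CCT6A) and 1671 bases (TCP1). The listed transcripts differ more, from 1916 bases (CCT7) to 3675 bases (CCT5).

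The subunits did not have equal footprint levels. Levels are footprint CPM per kilobase of coding sequence, with libraries scaled by trimmed-mean (TMM) factors. CCT7, the eta subunit, had the highest level of the 8 in both lines, at 939 (interval 913 to 965; 5032 counts) in the knockout-labelled line and 1181 (1149 to 1213; 5227 counts) in the OE-labelled line. CCT2, the beta subunit, had 192 (180 to 204; 1014 counts) in the knockout-labelled line and 251 (236 to 266; 1094 counts) in the OE-labelled line. TCP1, the alpha subunit and the founding member of the family, had 239 (226 to 252; 1310 counts) and 241 (226 to 255; 1090 counts) in the same order. The highest level exceeded the lowest 4.89-fold in the knockout-labelled line (CCT7 over CCT2) and 4.91-fold in the OE-labelled line (CCT7 over TCP1).

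Between these ends stood the other 5 subunits. The zeta subunit gene CCT6A had 869 (4555 counts) and 747 (3234 counts) in the knockout-labelled and OE-labelled lines, and the epsilon subunit gene CCT5 had 723 (3859 counts) and 760 (3350 counts). The delta subunit gene CCT4 had 561 (2983 counts) and 653 (2868 counts), and the gamma subunit gene CCT3 had 489 (2629 counts) and 527 (2343 counts). The theta subunit gene CCT8 had 369 (1995 counts) and 598 (2673 counts), the widest gap of the 8 between the lines as a ratio. In descending order the knockout-labelled line ran CCT7, CCT6A, CCT5, CCT4, CCT3, CCT8, TCP1, CCT2, and the Poisson intervals of all 7 neighbouring pairs were apart. The OE-labelled line ran CCT7, CCT5, CCT6A, CCT4, CCT8, CCT3, CCT2, TCP1. There the intervals of CCT5 and CCT6A overlapped, as did those of CCT2 and TCP1, and the other 5 neighbouring pairs were apart. CCT3 and CCT8 changed places between the lines, with intervals apart in both.

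**Figure D1:**
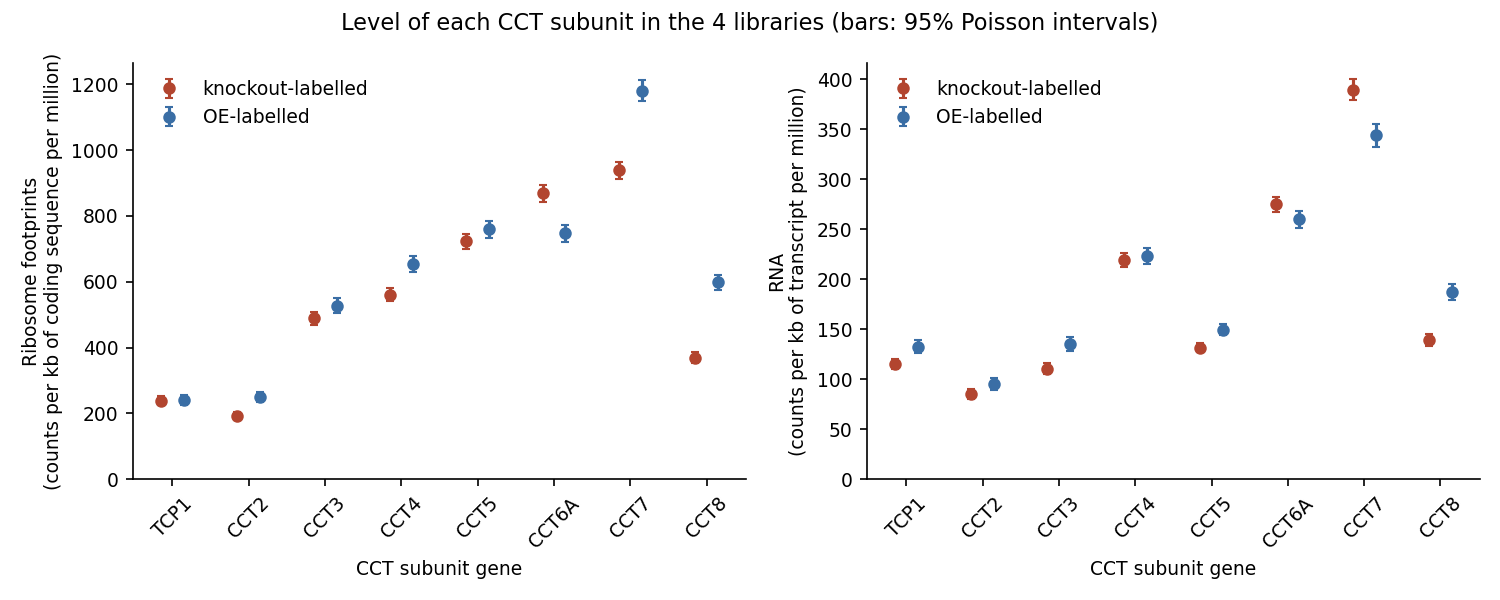
Footprint CPM per kilobase of coding sequence (left) and RNA CPM per kilobase of transcript (right) of each CCT subunit gene, with exact 95% Poisson intervals, in the knockout-labelled and OE-labelled lines. CCT7 stands highest in all 4 libraries, CCT2 and TCP1 are the lowest 2 in both footprint libraries, and CCT8 shows the widest footprint gap between the lines as a ratio (369 against 598).

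With equal levels each subunit would take 12.5% of the summed footprint level of the complex. CCT7 took 21.4% in the knockout-labelled line and 23.8% in the OE-labelled line. CCT6A took 19.8% and 15.1%, and CCT8 8.42% and 12.1%. CCT2 (4.38% and 5.06%) and TCP1 (5.45% and 4.85%) took the least. Of the 28 pairs of subunits, 20 in the knockout-labelled line and 17 in the OE-labelled line differed at least 1.5-fold in footprint level, and 12 and 13 at least 2-fold. Across the 8 subunits, the log2 footprint levels of one line tracked those of the other (Pearson r 0.94, Spearman rho 0.93). This is a description over 8 genes of nearly the same coding length, in 2 libraries. All 8 stood high among the measured genes: the lowest, CCT2, was above 85.6% of them in knockout-labelled footprints, and CCT7 was above 97.0%. CCT took 0.717% of all footprint counts in the knockout-labelled line and 0.801% in the OE-labelled line.

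RNA levels were unequal too, with much of the same order. In CPM per kilobase of the listed transcript, CCT7 had 390 (5300 counts) in the knockout-labelled line and 344 (3436 counts) in the OE-labelled line, the highest of the 8. CCT6A followed with 275 (5311 counts) and 260 (3688 counts), and CCT4 with 219 (3921 counts) and 223 (2928 counts). CCT2 was lowest with 85.1 (1232 counts) and 95.4 (1015 counts). CCT8 had 139 (1980 counts) and 187 (1957 counts), CCT5 132 (3435 counts) and 150 (2870 counts), TCP1 115 (2040 counts) and 133 (1730 counts), and CCT3 111 (1689 counts) and 135 (1512 counts). CCT2 is thus at the low end in RNA as well as in footprints, while CCT3 in the knockout-labelled line held the fifth place in footprints and the seventh in RNA. The highest RNA level exceeded the lowest 4.58-fold in the knockout-labelled line and 3.61-fold in the OE-labelled line. Which part of the transcript was counted is not given. Per coding length, CCT6A (469 and 443) stood above CCT7 (458 and 404), and CCT5, which has the longest listed transcript, moved up to the fourth place in both lines. Over the 8 subunits, log2 footprint and RNA levels had a Pearson r of 0.81 in the knockout-labelled line and 0.84 in the OE-labelled line.

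Footprints over RNA within a line also differed between subunits. This quantity is the log2 ratio of footprint CPM to RNA CPM of the same gene. The median of the 7260 genes measured in both assays was subtracted. Gene length cancels only if both assays were counted over the same part of the transcript, which is not given. Otherwise the value carries the coding share of the transcript, which is 1626 of 3675 bases in CCT5 and 1632 of 1916 in CCT7. All 8 subunits lay above the median gene in both lines, with a median of 1.66-fold (knockout-labelled) and 1.86-fold (OE-labelled). Genes of like depth and other complexes are not set beside them in this measure, so it is not shown to be particular to CCT. CCT3 stood at 2.86-fold and 2.57-fold of the median gene in the knockout-labelled and OE-labelled lines, above 97.9% and 96.3% of genes. TCP1 stood at 1.18-fold and 1.04-fold, and its interval in the OE-labelled line included the median gene (log2 0.06, -0.05 to 0.17). CCT3 and TCP1 had nearly the same RNA level per listed transcript length. Per coding length TCP1 had 172 and 199 and CCT3 145 and 177 in the knockout-labelled and OE-labelled lines. In footprints over RNA, CCT3 and TCP1 are the highest and lowest of the 8, 2.42-fold and 2.46-fold apart in the same order of lines. CCT5 had 2.06-fold and 1.93-fold, CCT8 1.85-fold and 2.26-fold, and CCT7 1.74-fold and 2.52-fold. CCT6A (1.58-fold and 1.45-fold), CCT2 (1.51-fold and 1.79-fold) and CCT4 (1.40-fold and 1.62-fold) completed the set. TCP1 is also the gene with the largest share of 28-nt words in common with other genes, chiefly pseudogenes, and CCT3 has none of that length. At 18 nt the share of CCT3 was 2.22%. The part of this in the difference was not tested.

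**Figure D2:**
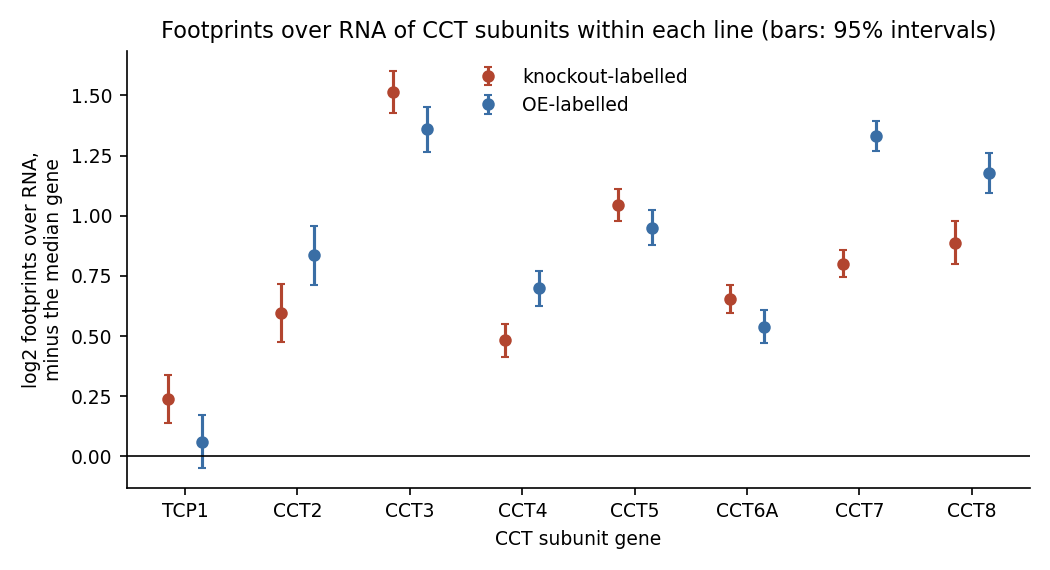
Log2 of footprint CPM over RNA CPM for each CCT subunit gene, less the median of 7260 genes (zero line), with 95% Wald intervals from the counts, in the knockout-labelled and OE-labelled lines. CCT3 is highest in both lines and TCP1 lowest, and CCT7 shows the widest gap between the lines (1.74-fold against 2.52-fold of the median gene).

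Summed over the 8 subunits, CCT differed little between the lines. Each ratio below has the knockout-labelled line on top, with 0.5 added to each count. The summed counts were 24908 and 19136 in RNA, a log2 ratio of -0.06 (-0.09 to -0.04) that was 0.05 when libraries were scaled by total counts. They were 23377 and 21879 in footprints, a log2 ratio of -0.18 (-0.21 to -0.15), 1.13-fold lower. Footprints over mRNA had a summed log2 ratio of -0.12 (-0.15 to -0.08).

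In mRNA no subunit was past 1.5-fold. CCT8 was lowest at -0.43 (-0.52 to -0.34), followed by CCT3 at -0.29 (-0.39 to -0.18), TCP1 at -0.21 (-0.30 to -0.11), CCT5 at -0.19 (-0.26 to -0.11) and CCT2 at -0.17 (-0.29 to -0.04). CCT4 stood at -0.02 with an interval across 0 (-0.09 to 0.05), CCT6A at 0.08 (0.02 to 0.14) and CCT7 at 0.18 (0.12 to 0.24). The median was -0.18, beside 0.01 over the 9855 measured genes. Over the 846 genes with a mean RNA count at least that of the lowest subunit, the median was -0.045. Under total-count scaling the all-gene mRNA median was 0.13 and that of the subunits -0.06; another scaling shifts all genes of an assay alike and leaves the gap between these medians as it is. Of all measured genes, 10.5% lay past 1.5-fold on the higher side and 10.5% on the lower side. Among the 846 genes with a mean RNA count at least that of the lowest subunit, the shares were 5.08% higher and 7.21% lower, so a count of 0 of 8 is near this background.

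In footprints 1 subunit was past 1.5-fold. CCT8 was 1.62-fold lower in the knockout-labelled line (log2 ratio -0.70, -0.78 to -0.61). CCT2 stood at -0.39 (-0.51 to -0.26), CCT7 at -0.33 (-0.39 to -0.28), CCT4 at -0.22 (-0.29 to -0.15) and CCT3 at -0.11 (-0.19 to -0.03). CCT5 at -0.07 (-0.14 to -0.01) and TCP1 at -0.01 (-0.13 to 0.11) were near 0, and TCP1 was above 0 under total-count and upper-quartile scaling. CCT6A alone was above 0 in the TMM scaling, at 0.22 (0.15 to 0.28). Of all 7323 measured genes, 14.0% lay past 1.5-fold on the lower side and 15.0% on the higher side. Among the 480 genes with a mean footprint count at least that of the lowest subunit, the shares were 7.29% lower and 9.79% higher. A count of 1 of 8 lower is near these shares.

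The subunits were spread more in these ratios than counting error gives. The SD over the 8 subunits was 0.20 in mRNA, 0.28 in footprints and 0.26 in footprints over mRNA, while counting error alone corresponds to SDs of 0.04, 0.04 and 0.06. The difference between 2 subunits had an interval excluding 0 for 22 of 28 pairs in mRNA, 23 in footprints and 19 in footprints over mRNA. Few of these gaps were wide: 1, 5 and 4 pairs were at least 1.5-fold apart. The 28 pairs come from only 8 genes, and no such count is given here for pairs of other genes. In genes at least as deep as the lowest subunit, the SD of the ratio was 0.42 in mRNA (846 genes) and 0.48 in footprints (480 genes), so the 8 subunits lay closer to each other than those genes did. Variation between cultures could not be measured. Without CCT8, the SD was 0.17 in mRNA and 0.21 in footprints.

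**Figure D3:**
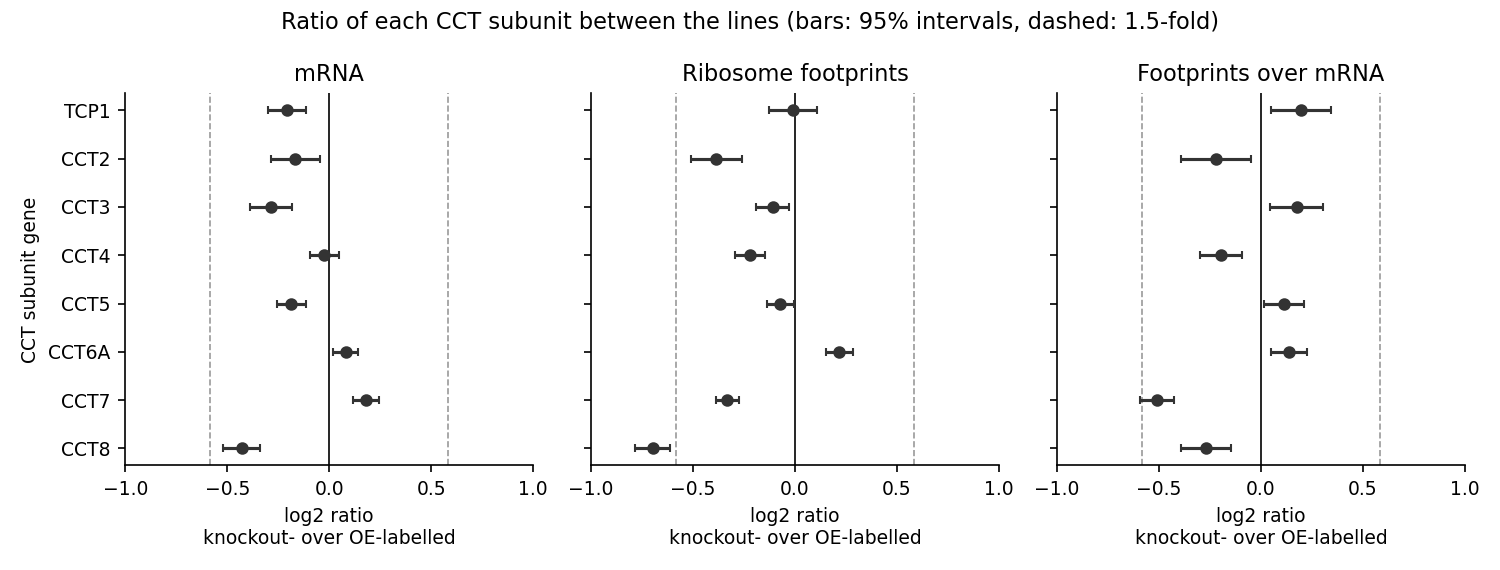
Log2 ratio of the knockout-labelled over the OE-labelled line for each CCT subunit gene in mRNA, footprints and footprints over mRNA, with 95% intervals for counting error; dashed lines mark 1.5-fold. CCT8 in footprints (-0.70) is the only value past a dashed line, and CCT7 has opposite signs in mRNA (0.18) and footprints (-0.33).

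CCT7 was the subunit whose assays differed most. Its RNA counts were 5300 in the knockout-labelled line and 3436 in the OE-labelled line, but its footprint counts were 5032 and 5227. The footprint-over-mRNA log2 ratio of CCT7 was -0.51 (-0.60 to -0.43), 1.43-fold lower in the knockout-labelled line with 15.6% of the 7260 genes below it. No subunit was past 1.5-fold in this measure, against 13.4% of genes higher and 12.9% lower, or 14.6% and 0.941% of the 425 genes as deep as the lowest subunit in both assays. Under total-count scaling CCT7 stood at -0.61 and passed 1.5-fold, but the median of all genes in this measure was then -0.10 in place of -0.005. The share of all genes past 1.5-fold under that scaling is not given here. CCT8 (-0.27), CCT2 (-0.22) and CCT4 (-0.20) were also below 0, with intervals that exclude it. TCP1 (0.20), CCT3 (0.17), CCT6A (0.14) and CCT5 (0.11) were above 0 in the same way, but under total-count scaling the intervals of these 4 included 0. Their values were then 0.10 (TCP1), 0.08 (CCT3), 0.04 (CCT6A) and 0.02 (CCT5). In the TMM scaling 4 subunits lay above 0 and 4 below, and their median of -0.04 lay beside 0.00 for all genes. It lay below the median of 0.09 for the 425 genes as deep as the lowest subunit. Across the 8 subunits the mRNA and footprint log2 ratios had a Pearson r of 0.43, and -0.02 without CCT8.

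CCT8 lies on chromosome 21, where most measured genes were lower in the knockout-labelled line. Its 40 nearest measured genes, within 7.28 Mb, had a median mRNA log2 ratio of -0.56, and 24 of the 40 were below CCT8 itself. In footprints the 40 nearest genes (within 11.5 Mb) had a median of -0.53, and 16 of the 40 were below CCT8. CCT8 less its neighbours was 0.13 in mRNA and -0.17 in footprints. For the other 7 subunits the neighbours' median lay between -0.04 (CCT4) and 0.08 (CCT2) in mRNA. In footprints it lay between -0.03 (CCT4) and 0.30 (CCT6A), and CCT6A less its neighbours stood at -0.08. With the neighbours' median subtracted from each subunit, the 8 footprint ratios ran from -0.42 (CCT2) to -0.06 (CCT5), with an SD of 0.16 in place of 0.28. The SD in mRNA was 0.19 in place of 0.20. DNA copy number was not measured, and its part was not tested.

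**Figure D4:**
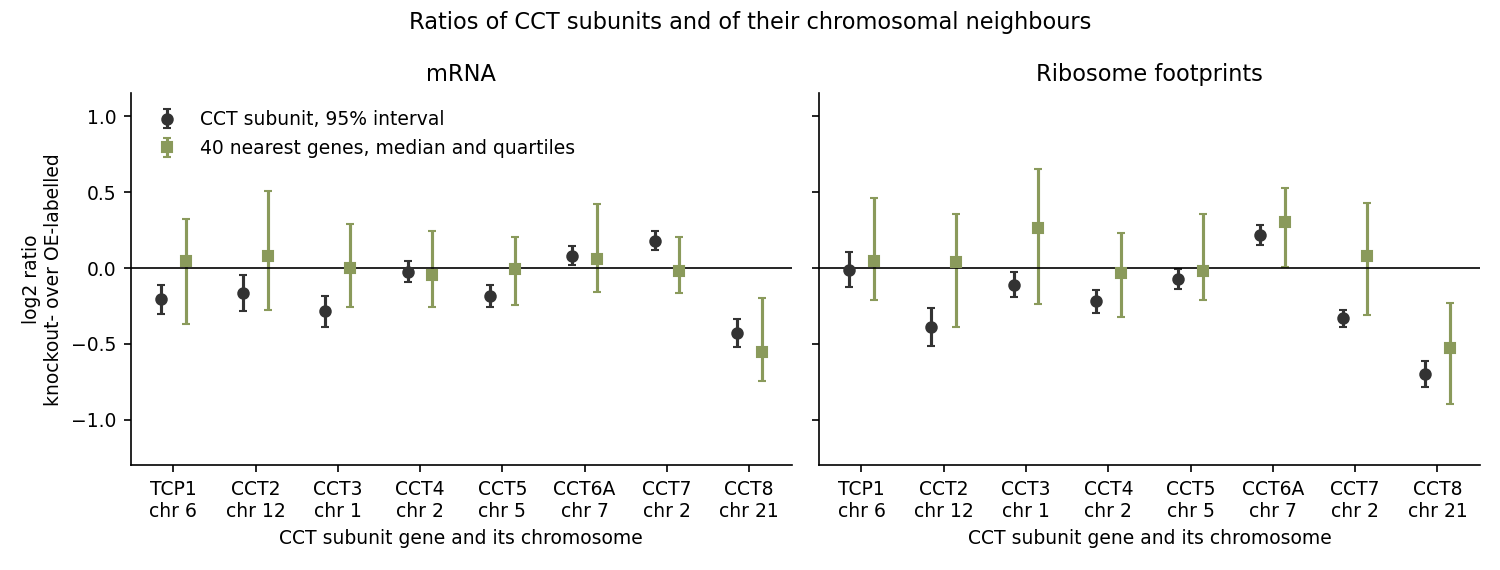
Log2 ratio of the knockout-labelled over the OE-labelled line for each CCT subunit gene (circles, 95% intervals) beside the median and quartiles of its 40 nearest measured genes on the same chromosome (squares), in mRNA and footprints. The neighbours of CCT8 on chromosome 21 have medians of -0.56 and -0.53, while those of the other subunits lie near or above 0.

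Other complexes with a fixed make-up give a scale for this spread. The SD of log2 footprint levels per coding length over CCT subunits was 0.84 in the knockout-labelled line and 0.79 in the OE-labelled line. Over the 14 subunits of the 20S proteasome, the proteolytic core, it was 0.77 and 0.73. Over the 6 subunits of prefoldin, which hands unfolded actin and tubulin to CCT, it was 0.77 and 0.56. The replicative helicase MCM2-7 had 1.1 and 1.26, and the ARP2/3 actin nucleator, whose list holds alternative subunits that do not share a complex, had 1.17 and 1.23. Over all 7252 genes measured in both assays with a coding length the SD was 1.94 and 1.92. In RNA, levels were divided by the length of the listed transcript, untranslated parts included. On that scale the SD over CCT subunits (0.75 and 0.60) was below those of the other 4 complexes. Those ran from 1.04 to 1.51 and from 1.05 to 1.40. RNA levels per coding length were not compared between complexes, and how far this order rests on the length used was not tested. Footprint SDs per coding length lay below RNA SDs per listed transcript length in both lines for the proteasome, prefoldin and ARP2/3. For CCT and MCM2-7 they lay above them. The lengths used differ between the assays, so these SDs do not compare footprints with RNA on a like scale.

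The ratios between the lines gave a different order. The SD of footprint log2 ratios was 0.28 over CCT subunits, against 0.15 over the proteasome, 0.31 over MCM2-7, 0.44 over ARP2/3 and 0.46 over prefoldin, where lower counts add counting error (0.08, 0.09, 0.12 and 0.12 in this order). The median footprint ratio was -0.16 for CCT, -0.09 for the proteasome, -0.33 for MCM2-7, -0.39 for ARP2/3 and 0.34 for prefoldin. The 4 proteasome genes with the most counts had footprint log2 ratios of 0.06 (PSMA7, -0.04 to 0.16), -0.20 (PSMB1, -0.33 to -0.08), 0.17 (PSMB3, 0.05 to 0.30) and 0.22 (PSMB4, 0.13 to 0.31). The helicase genes MCM7 (-0.72), MCM4 (-0.42), MCM6 (-0.29) and MCM3 (-0.26) were lower, as were the ARP2/3 genes ACTR3 (-0.77), ARPC2 (-0.73), ACTR2 (-0.55) and ARPC1B (-0.27). Members of both complexes also lay above 0 in footprints, namely MCM2 (0.23, 0.06 to 0.39), ARPC3 (0.38, 0.24 to 0.53) and ARPC5L (0.35, 0.04 to 0.67). These are descriptions of single libraries, and no difference between complexes was tested.

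**Figure D5:**
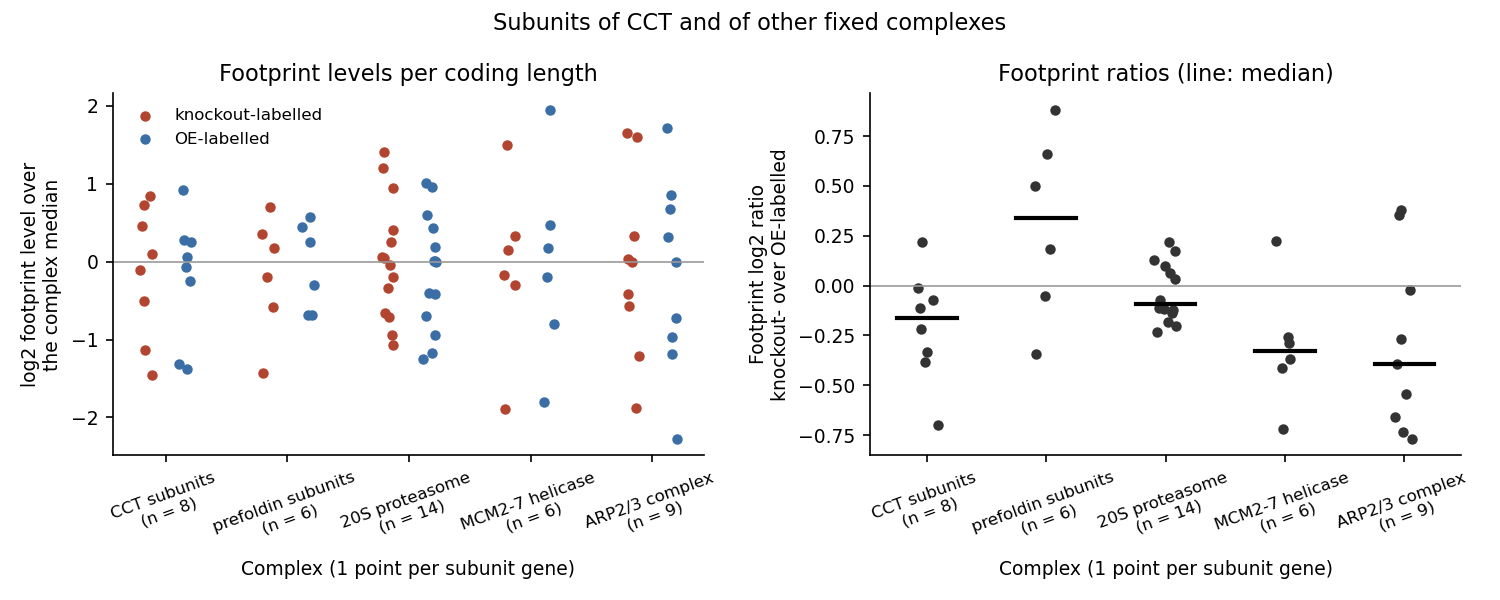
Footprint level per coding length of each subunit gene over the median of its complex, log2, in the knockout-labelled and OE-labelled lines (left), and footprint log2 ratio of the knockout-labelled over the OE-labelled line with the median as a bar (right), for CCT and 4 other complexes. CCT levels span a range close to that of the 20S proteasome, while CCT ratios (SD 0.28) spread more than those of the proteasome (SD 0.15).

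The relatives of CCT were mostly at low counts. Of the chaperonin-like paralogues, CCT6B, which is known from testis, had 2 and 4 footprint counts and 14 and 15 RNA counts in the knockout-labelled and OE-labelled lines. CCT8L2 had no count in any library, and a count of 0 allows up to 0.920 and 1.1 CPM in footprints and 0.440 and 0.553 CPM in RNA. MKKS, a chaperonin-like gene of the Bardet-Biedl syndrome group, had 195 and 139 footprint counts, with log2 ratios of 0.18 (mRNA) and 0.21 (footprints). BBS10, of the same group, had 117 and 48 RNA counts in the knockout-labelled and OE-labelled lines, a log2 ratio of 0.83, and 58 and 20 footprint counts, under the minimum. BBS12 had 10 and 13 RNA counts.

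All 6 prefoldin subunits were measured, and footprints over mRNA had an interval above 0 for PFDN2, PFDN5 and PFDN6 and across 0 for PFDN1, PFDN4 and VBP1. The median log2 ratio was -0.30 in mRNA, with 0 past 1.5-fold higher and 2 lower (PFDN5 and PFDN6), beside 10.5% of all genes each way. It was 0.34 in footprints, with 2 higher (PFDN2 and PFDN6) and 0 lower, beside 15.0% and 14.0% of all genes. PFDN5 stood at -0.64 in mRNA and 0.19 in footprints, PFDN2 at 0.10 and 0.66, PFDN1 at 0.32 and 0.50, and VBP1 at -0.15 and -0.05. PFDN6 had the widest difference between assays, at -0.59 and 0.88, and PFDN4 stood at -0.44 and -0.35. Of the CCT cofactors related to phosducin and their partners, 4 of 5 were measured and none was past 1.5-fold in either assay. PDCD5, which binds CCT, stood at -0.43 in mRNA and -0.15 in footprints. PDCL, PDCL3 and TXNDC9 had footprint log2 ratios of 0.08, 0.27 and 0.49.

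CCT clients had a median near that of all genes. Of 27 in mRNA the median was 0.03, with 2 at least 1.5-fold higher (TUBA4A and PPP2R2A) and 2 lower (TUBB3 and TUBB2B), where 10.5% of all genes lay past it each way. Of 26 in footprints the median was -0.02, with 0 higher and 4 lower (RPTOR, ACTR3, PLK1 and TUBB3), where 15.0% and 14.0% of all genes did. These counts are near or below those shares. ACTB, the gene of cytoplasmic beta actin, stood at -0.18 in mRNA and -0.28 in footprints, and ACTG1, the gene of gamma actin, -0.51 and -0.22. The alpha-tubulin gene TUBA1B had 0.28 and 0.32, and the beta-tubulin gene TUBB -0.19 and 0.19. Actin and tubulin genes have near-identical copies, so single members are uncertain. TUBB3, a beta-tubulin of neurons, was the client past 1.5-fold in both assays, at -0.87 and -0.62. The tubulin cofactors that take over from CCT had medians of -0.29 in mRNA and -0.13 in footprints over 5 measured genes, with TBCB at -0.56 and -0.93, TBCA at -0.29 and -0.18, ARL2 at -0.50 and -0.13 and TBCE at 0.18 and 0.08.

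Other cytosolic chaperones had medians below 0. Of 12 heat shock genes, including HSF1, the transcription factor of the heat shock response, the median was -0.22 in mRNA and -0.35 in footprints; 1 (HSPA1B) and 4 (HSPA8, HSPH1, HSPA1A and HSPA1B) were at least 1.5-fold lower and 0 higher, beside 10.5% of all genes lower in mRNA and 14.0% in footprints. HSPA8, the constitutive HSP70 gene, had -0.52 in mRNA and -0.61 in footprints, HSP90AA1 had -0.20 and -0.46, HSP90AB1 -0.24 and -0.35, and HSPA4 0.18 and -0.02. Against the medians, BAG3 (0.31, 0.06 to 0.58) and DNAJA1 (0.14, 0.02 to 0.25) lay above 0 in footprints. STIP1 (0.23, 0.12 to 0.33) did so in mRNA, as did HSPA4. HSPA1B, an inducible HSP70 gene, had -0.66 and -0.69, which is uncertain because HSPA1A is nearly identical. The mitochondrial chaperonin, an evolutionary relative of CCT, had HSPD1 at -0.07 and -0.27 and its lid gene HSPE1 at -0.50 and -0.53.

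The genes most like the median CCT subunit were sought by distance over 3 values, the mRNA and footprint log2 ratios and the footprints over RNA in the OE-labelled line, among 425 genes at least as deep as the lowest subunit in both assays. They were NDUFV1 (distance 0.11), XRCC5 (0.12), RPL27 (0.13), EZR (0.13) and EIF3M (0.14). Of the subunits, CCT5 was nearest to the median subunit (0.11, the first of 425 genes), CCT2 was the 19th and CCT4 the 29th. The others were farther, from the 91st place (CCT3) to the 227th (TCP1, distance 0.85), so the 8 subunits did not form a tight group in these values.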

How the data were processed

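The deposited files hold unnormalized counts for 19192 genes, each beside 1 transcript identifier. According to the labels' protocols, every library pooled 3 plates, selected footprints spanned 18 to 34 nt, RNA fragments reached 50 nt, linkers held random identifiers, and PCR ran for 15 cycles. GRCh38 and the tools HISAT2 2.1.0, Bowtie 1.1.2 and cutadapt 1.10 are named in the submitters' processing notes. Not given in the sources used here: the counter, and whether PCR copies were collapsed, which would leave intervals too narrow if they were not.

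TMM factors (edgeR 4.0.16, R 4.3.3) set the scale of the libraries of an assay, and genes with a mean count of at least 50 were measured. Ratio intervals are exact conditional binomial (Clopper-Pearson), or Wald for footprints over mRNA; level intervals are exact Poisson. Lengths and coordinates are from GENCODE release 29, in which 19176 of 19192 transcript identifiers were found. A model with replicates could not be fitted. Members and the 11 gene lists were chosen with earlier results of these data known. Beside the 8 subunits, the genes named are up to 4 of each list with the most counts, list members past 1.5-fold in both assays in the same direction, the 5 nearest genes, IGF2BP1 and LIN28B; CCT8L2, and list members named because they were past 1.5-fold in 1 assay or went against their list, were added after their values were seen. The formulas for ratios and intervals were run on simulated Poisson counts with known fold changes. Scaling factors, the subtraction of neighbours and variation between cultures were not simulated. Size factors from DESeq2 1.42.0, scaling to total counts or to the upper quartile, and other count minimums, thresholds, pseudocounts and length divisors were the alternatives. Software was pandas 2.3.3, scipy 1.17.1 and numpy 2.4.6 under Python 3.11.15, with figures from matplotlib 3.10.9.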

Additional observations from a re-analysis of the deposited data

How the results depend on the processing

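No paired analysis was possible because each line has 1 library per assay and the labels carry no replicate numbers. DESeq2 size factors and 5 added to each count moved none of the 24 subunit ratios outside its interval. Total-count scaling moved 9 of 24, shifting mRNA ratios by 0.12 and turning the signs of CCT4 in mRNA and TCP1 in footprints; upper-quartile scaling turned TCP1 in footprints. With total counts the summed mRNA ratio of CCT was 0.0527 and footprints over mRNA -0.21, with 1 subunit (CCT7) past 1.5-fold. The all-gene median of footprints over mRNA was then -0.10. With upper-quartile scaling the summed footprints over mRNA of CCT was -0.0687, and the all-gene median was 0.04. With the median of the 40 nearest genes subtracted, the summed ratios were -0.0264 in mRNA and -0.22 in footprints. Leaving out 1 subunit at a time gave -0.12 (without CCT7) to -0.0283 (without CCT8) in mRNA and -0.26 (without CCT6A) to -0.12 (without CCT8) in footprints. At a nearer threshold, a ratio of 5 to 4, 1, 3 and 1 subunits were past the threshold in mRNA, footprints and footprints over mRNA, below the 46.4%, 54.7% and 52.2% of all genes past it, and at 2-fold 0 in footprints.

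Per whole transcript length the highest footprint level exceeded the lowest 5.29-fold and 6.26-fold (knockout-labelled and OE-labelled). Per coding length in footprints and transcript length in RNA, with 1 subunit left out, the fold ran from 3.93 to 4.89 and from 3.16 (without CCT7) to 4.91 in footprints, and from 3.24 to 4.58 and from 2.59 to 3.61 in RNA. The genes past 1.5-fold numbered 2074 in mRNA, 2123 in footprints and 1911 in footprints over mRNA. In this order they were 639, 666 and 526 at 2-fold, 4575, 4004 and 3787 at the ratio of 5 to 4, 3392, 4115 and 3981 with a minimum mean count of 10, 792, 569 and 390 with 200, and 6162, 6443 and 6082 with no filter on low counts. The share of tested genes past 1.5-fold changed with the minimum too, not only the number tested. In mRNA it was 21.05% in the main setting, 27.75% with a minimum of 10, 13.62% with 200 and 39.76% with no filter. In the same order it was 28.99%, 38.3%, 19.11% and 47.69% in footprints. In footprints over mRNA it was 26.32%, 37.35%, 13.42% and 45.9%. The causes of these changes were not tested.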
